A study of Mus musculus with 6 samples.

Results

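The genes described here are 31 genes of the lysosome and of the transcription factor family that drives lysosome formation, taken by symbol from the 55385 genes of a mouse liver RNA sequencing table. They comprise 3 transcription factors (Tfeb, Tfe3, Mitf), 4 membrane proteins, 4 genes of the calcium channel and the proton pump, 9 cathepsins and other peptidases, 6 glycosidases and 5 genes of lipid handling. Of the 31, 30 had a mean level of at least 0.5 FPKM over the 6 libraries and entered the tests, and Mitf did not. FPKM, the deposited unit of level, is the fragment count of a gene scaled by the length of its model and by the total of the library.

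The 6 libraries came from 6 C57BL/6 mice aged 6 weeks, 2 per group. Optn-/- mice (replicates 4 and 5) and wild-type mice (replicates 1 and 4) received acetaminophen (APAP) at 500 mg/kg into the abdominal cavity, and wild-type control mice (replicates 3 and 6) received 200 µL of PBS, with livers taken 6 h later in all groups. Optn encodes optineurin, an autophagy receptor that acts in the removal of damaged mitochondria. APAP is a painkiller that injures hepatocytes at high dose. An Optn-/- group without APAP was not analysed here, so the effect of the genotype alone is not measured, and how the Optn allele was made is not given in the sources used here.

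Lysosomes are the acidic compartments in which cathepsins, glycosidases and lipases break down material delivered by autophagy and endocytosis. A proton pump in their membrane keeps the lumen acid. TFEB, TFE3 and MITF are relatives that enter the nucleus when the kinase mTORC1 at the lysosome surface is inactive, and there they bind a short palindrome, the CLEAR element, in front of many lysosomal genes. They are regulated to a large part by phosphorylation and location, which transcript counts do not show. In the liver, hepatocytes use the pathway for lipid and glycogen turnover, and Kupffer cells, the resident macrophages, are rich in lysosomal peptidases.

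The sequence that this family binds was looked up in the promoters of the members. In RefSeq promoter windows of GRCm38.p6, running from 250 bases before to 50 bases after a gene's start, 26 of the 31 members had an entry, all but Atp6v1h, Ctsb, Ctsh, Npc1 and Asah1. The core CACGTG was found in 10 of the 26 (38.5%), against 8.09% of the 27025 genes with such a window. The longer TCACGTGA, which contains the core, was found in 6 of the 26 (23.1%), against 1.12% of all genes. The form with a further G before and C after it was found in 0 of the 26, against 0.37%. All 3 are palindromes, so 1 search covers both strands. The members with TCACGTGA were Atp6v0d1, Atp6v1a, Ctsa, Ctsd, Gla and Mcoln1, and those with the core alone were Ctsl, Gaa, Glb1 and Lamp1, of which Lamp1 holds 4 copies. The windows below are shown because they carry the element of this family. They are written 5′ to 3′ on the strand of the gene, with a single copy of the motif in capitals. The last is the whole window of Ctsl, the member with the largest fold change in wild-type livers with APAP.

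Atp6v0d1: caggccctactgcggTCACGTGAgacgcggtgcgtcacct
Atp6v1a: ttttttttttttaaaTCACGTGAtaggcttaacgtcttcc
Ctsa: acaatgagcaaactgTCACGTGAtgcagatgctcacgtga
Ctsd: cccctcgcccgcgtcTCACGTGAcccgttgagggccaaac
Gla: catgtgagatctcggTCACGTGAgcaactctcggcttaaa
Mcoln1: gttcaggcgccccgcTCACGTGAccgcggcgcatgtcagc
Ctsl: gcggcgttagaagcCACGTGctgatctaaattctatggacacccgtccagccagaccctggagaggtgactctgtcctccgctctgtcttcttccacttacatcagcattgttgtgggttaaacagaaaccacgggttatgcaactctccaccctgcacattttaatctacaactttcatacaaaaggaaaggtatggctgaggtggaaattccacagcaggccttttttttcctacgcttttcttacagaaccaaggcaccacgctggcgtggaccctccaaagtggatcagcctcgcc

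On GRCm38.p6 the windows lie at chr8:105566044-105566083 (Atp6v0d1, minus strand), chr16:44139367-44139406 (Atp6v1a, minus), chr2:164833745-164833784 (Ctsa, plus), chr7:142387902-142387941 (Ctsd, minus), chrX:134601176-134601215 (Gla, minus), chr8:3500458-3500497 (Mcoln1, plus) and chr13:64370471-64370770 (Ctsl, minus). The first base of the motif stood 4 bases before the annotated start in Atp6v0d1, 13 in Ctsa, 46 in Mcoln1, 99 in Ctsd, 132 in Atp6v1a and 195 in Gla, and the core of Ctsl stood 236 bases before it. Ctsa holds a second copy after its start, printed in lower case at the end of its window. Gla holds a second copy further upstream, outside the window printed. A match of letters is a description of these windows and not a measured binding site.

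Across the libraries the members spanned a wide range of levels. Averaged over the 6 libraries, 5 members lay at 100 FPKM or above. These were Lamp1 (235.5 FPKM), the most abundant protein of the lysosomal membrane, Ctsz (167 FPKM), a carboxypeptidase, Psap (160 FPKM, precursor of the saposins that help lipid hydrolases), the aspartic protease Ctsd (134 FPKM) and the cysteine protease Ctsl (104 FPKM). A further 12 members lay between 10 and 100 FPKM, 12 between 1 and 10, and Tfeb and Mitf under 1. The 3 transcription factors were therefore near the low end of the list, Tfe3 at 3.82 FPKM, Tfeb at 0.673 and Mitf at 0.256. Ranks by FPKM moved by at most 5 places between groups. Ctss, an immune cell cathepsin, ranked 10 of 31 in treated Optn-/- livers and 12 in treated wild type, against 15 in control, and Ctsl ranked 5 and 4 in these treated groups, against 7 in control. Lipa, a lysosomal lipase, ranked 17 in both treated groups, against 13 in control. A spread of 2 mice per group stands behind each of these ranks.

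**Figure D1:**
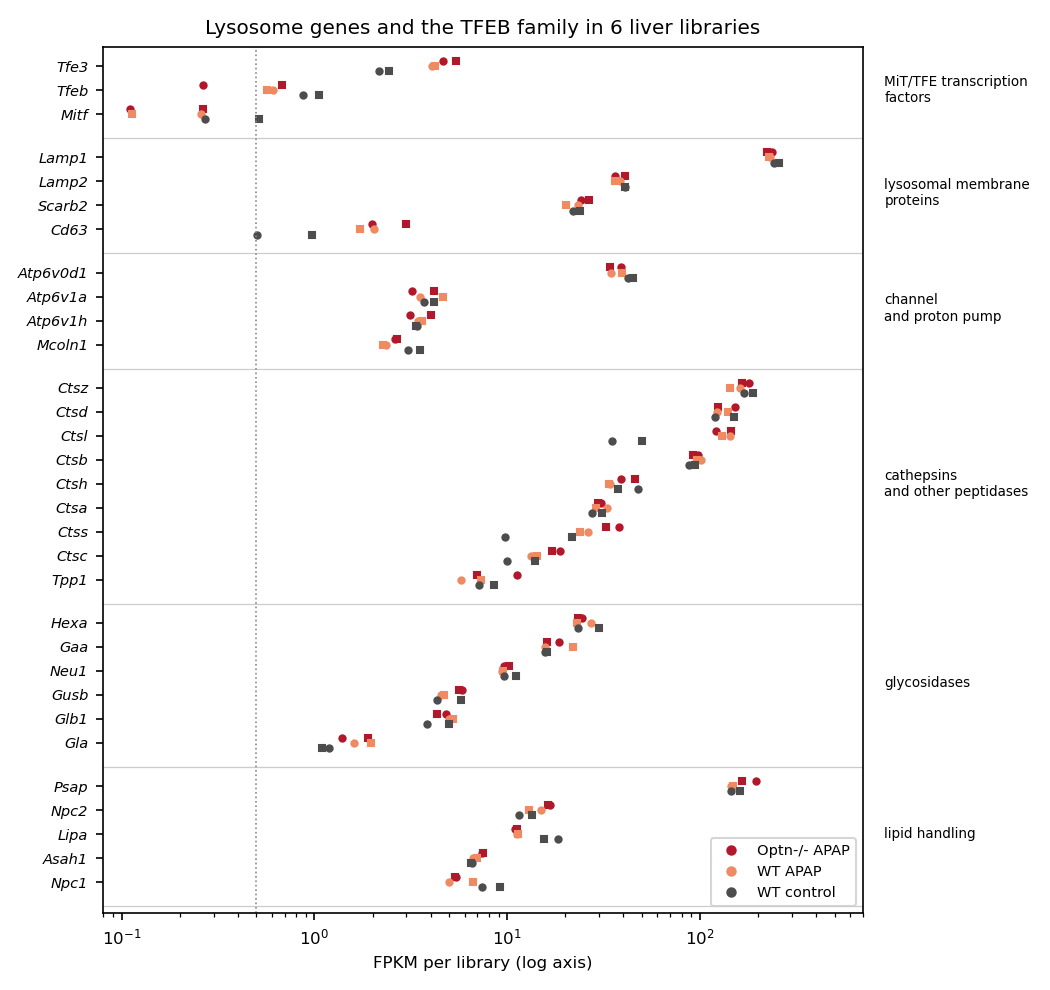
FPKM of the 31 members (log axis) in each of the 6 libraries, with Optn-/- APAP in red, WT APAP in orange and WT control in grey, circles for the lower and squares for the higher replicate number of a group, and a dotted line at the filter of 0.5 FPKM. Ctsl, Tfe3 and Cd63 are among the members with both control points to the left of all 4 treated points.

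Before the comparisons, the genotype, the tissue and traces of other tissues were checked. Optn stood at 0.316 and 0.457 FPKM in Optn-/- livers, 9.17 and 9.19 FPKM in treated wild type and 20.95 and 18.73 FPKM in control, which matches the labels. The 10 hepatocyte markers summed to between 115301 and 156426 CPM (counts scaled to a common library total) in every library. Transcripts of 10 skeletal muscle markers summed to 1.01 and 0.72 CPM in Optn-/- livers, 54.96 and 65.09 CPM in treated wild type, and 84.7 and 0.58 CPM in control replicates 3 and 6. The 10 intestine markers summed to 74.8 and 82.3 CPM in Optn-/- livers, 41.0 and 38.2 CPM in treated wild type, and 61.0 and 78.3 CPM in control replicates 3 and 6. Fabp2, a fatty acid carrier on that list, was highest in control replicate 3, with counts of 1858 and 1719 in Optn-/- livers, 1717 and 1767 in treated wild type, and 2972 and 2920 in control. Muc2, Clca1 and Zg16, genes of intestinal goblet cells chosen from the list after their values were seen, went against the muscle markers, with counts of 246 to 427 in Optn-/- livers, at most 4 in treated wild type, at most 4 in control replicate 3 and 219 to 313 in control replicate 6. The muscle markers and Muc2, Clca1 and Zg16 place the Optn-/- livers with control replicate 6, and the treated wild-type livers with control replicate 3. Tff3, also on the intestine list, did not follow this split. It had counts of 1818 and 1062 in Optn-/- livers, 649 and 676 in treated wild type, and 117 and 835 in control replicates 3 and 6. The 8 neuron and glia markers summed to 6.96 and 10.2 CPM in Optn-/- livers, 17.3 and 142.6 CPM in treated wild type, and 16.3 and 12.4 CPM in control, so replicate 4 of treated wild type stood apart. Without that library, 2 members (Ctsl and Tfe3) rose in wild type with APAP, and 0 differed between the treated groups (edgeR). A difference between treated Optn-/- and treated wild type and a difference between these library sets cannot be told apart. Values within a set are given beside each called member below. Each such value sets 2 treated livers against a single control liver. Its spread is estimated from the treated livers of both sets, so its adjusted p does not measure how control livers vary.

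In wild-type livers APAP raised 3 of the 30 members tested, the transcription factor Tfe3, the protease Ctsl and the membrane protein Cd63, and lowered 0. Over all 11677 genes tested, 14.3% passed in either direction, 8.36% higher and 5.92% lower, by edgeR's quasi-likelihood test at a Benjamini-Hochberg adjusted p under 0.05. The 3 members called thus make 10% of the 30, a share near that of all genes. At an unadjusted p under 0.05, 8 members were higher and 1 lower, together 30%, against 32.3% of all genes, 17.3% higher and 15% lower. On deposited FPKM, both treated livers stood above both controls for 9 members and below them for 10, against 21.1% and 45.1% of all genes. A positive log2 fold change was found for 22 members and for 52% of all genes. The median log2 fold change was 0.16 over the members and 0.03 over all genes, and the median absolute log2 fold change was 0.28 and 0.39. The median size of the change was thus smaller over the members than over all genes. The log2 fold changes of Tfe3, Cd63 and Ctsl were 1.06, 1.55 and 1.90. Over all genes, the 90th percentile was 1.09 and the 95th was 1.83, so changes of this size were not particular to the members.

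In treated Optn-/- livers set against the same controls, 6 of the 30 members were higher, Tfe3, Ctsl, Cd63, Ctsc, Ctss and Npc2, and 0 were lower (edgeR). Of all genes, 20.3% passed in this comparison, 12.2% higher and 8.05% lower. The 6 make 20% of the members. The median log2 fold change was 0.24 over the members and 0.00 over all genes as rounded, and 25 of the 30 members had a positive value, against 49.9% of all genes. At an unadjusted p under 0.05, 9 members were higher and 2 lower, against 19.5% and 16.4% of all genes (35.9% together). The groups did not overlap on FPKM for 11 higher and 6 lower members, against 24.3% and 44.5% of all genes. The comparison uses the same 2 control livers as the first, so the results of both are not independent. It also joins genotype and treatment, which cannot be told apart in it.

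Between treated Optn-/- and treated wild-type livers, 0 of the 30 members passed, and 0 had an unadjusted p under 0.05 by edgeR's quasi-likelihood test. DESeq2 also called 0 members. The background was low, with 12 of the 11677 genes past the threshold (0.103%, with 0.0514% in each direction) and 8.77% at an unadjusted p under 0.05, 4.92% higher and 3.85% lower. Both Optn-/- livers stood above both treated wild-type livers on FPKM for 12 members and below them for 2, against 23.1% and 15.9% of all genes. The median log2 fold change was 0.02 over the members, with a range of -0.36 to 0.47, and 16 were positive, against 49.9% of all genes. With 2 mice per group this does not show that the groups are alike. A member called against control in treated Optn-/- but not in treated wild type is thus not shown to differ between the treated groups.

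**Figure D2:**
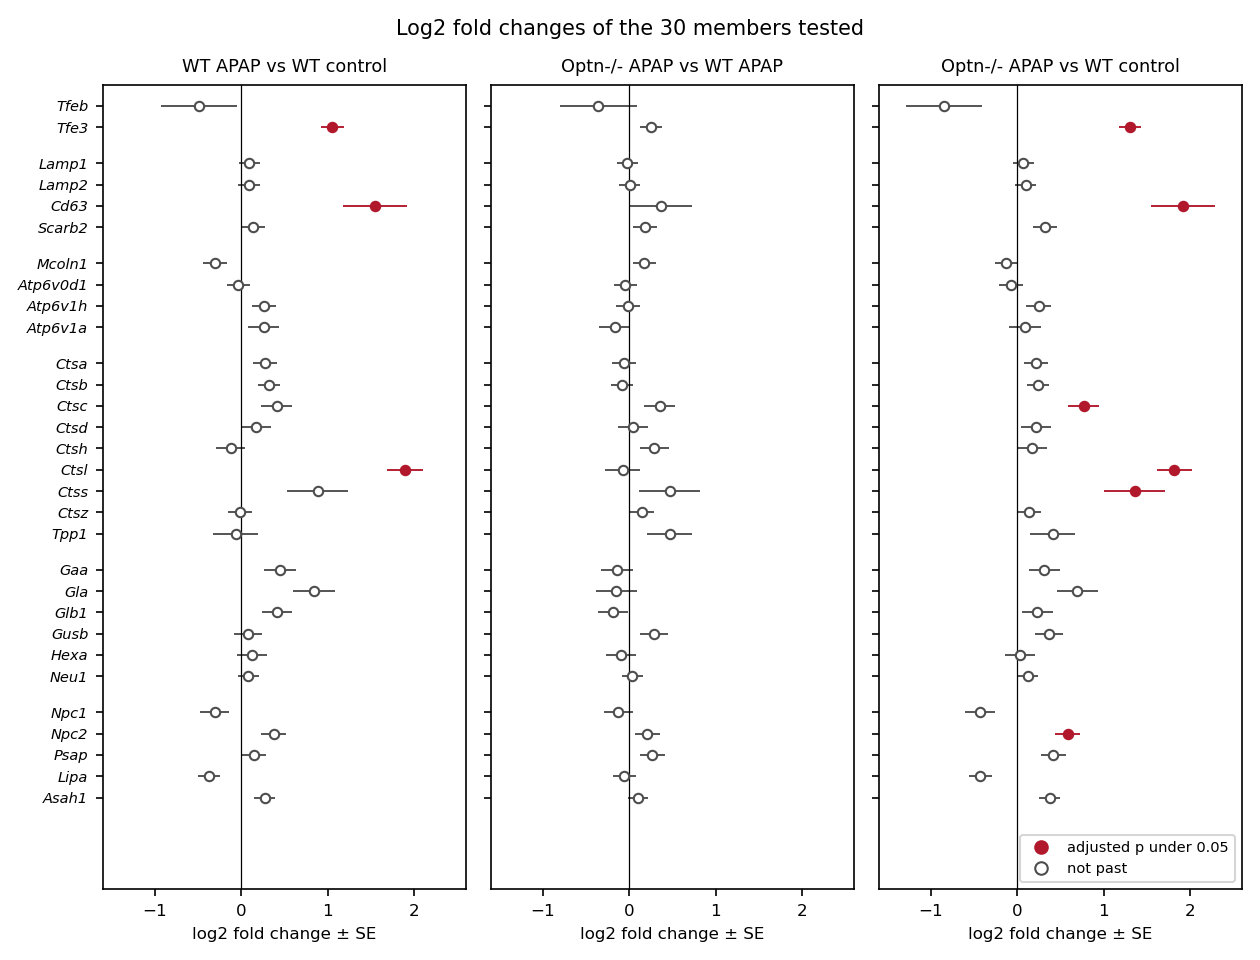
Log2 fold change ± SE of the 30 members tested in the 3 comparisons (edgeR, all 6 libraries in 1 model), grouped by role, with filled red points for an adjusted p under 0.05. The filled points are 3 in WT APAP against WT control, 0 in Optn-/- APAP against WT APAP and 6 in Optn-/- APAP against WT control.

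Among the transcription factors, Tfe3 rose and Tfeb did not. Tfe3 (ENSMUSG00000000134, chromosome X, 7762560 to 7775202, plus strand, GRCm38) had 4.64 and 5.39 FPKM in Optn-/- livers, 4.06 and 4.23 FPKM in treated wild type, and 2.17 and 2.44 FPKM in control. All 4 treated livers stood above both controls, and both Optn-/- livers above both treated wild-type livers. Tfe3 was 2.08-fold higher in treated wild type than in control (log2 fold change 1.06 ± 0.13 SE, edgeR adjusted p = 0.00815) and 2.47-fold higher in treated Optn-/- than in control (1.30 ± 0.13, edgeR adjusted p = 0.00338). Within the set of control replicate 3, the log2 fold change in treated wild type was 1.13 (edgeR adjusted p = 0.0351). Within the set of control replicate 6, that in treated Optn-/- was 1.24 (edgeR adjusted p = 0.0256). Without control replicate 3, the value in treated wild type was 0.99 and missed the threshold (edgeR adjusted p = 0.0529). Between the treated groups the log2 fold change of Tfe3 was 0.25 ± 0.13 (unadjusted p = 0.102, edgeR adjusted p = 0.642).

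Tfeb (chromosome 17, 47737030 to 47792419, plus strand, GRCm38), the best known member of the family, had 0.263 and 0.678 FPKM in Optn-/- livers, 0.609 and 0.565 FPKM in treated wild type, and 0.871 and 1.05 FPKM in control. Both controls stood above all treated livers, and the Optn-/- pair differed more between its mice than the other pairs did. No test passed, with log2 fold changes of -0.49 ± 0.44 in treated wild type (edgeR adjusted p = 0.497) and -0.85 ± 0.44 in treated Optn-/- (edgeR adjusted p = 0.227) against control. Its level lay near the filter, and its SE was the largest among the members tested. Mitf had 0.111 and 0.263 FPKM in Optn-/- livers, 0.26 and 0.113 FPKM in treated wild type, and 0.271 and 0.518 FPKM in control, and was not tested. A further relative, Tfec, known from macrophages, also lay below the filter, with 0.626 and 0.699 FPKM in Optn-/- livers, 0.685 and 0.346 FPKM in treated wild type, and 0.107 and 0.231 FPKM in control.

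Ctsl showed the largest called change of the list in wild type. It encodes cathepsin L, a cysteine protease with broad activity in the lysosome. Ctsl (chromosome 13, 64359337 to 64370890, minus strand, GRCm38) had 121 and 144 FPKM in Optn-/- livers, 143 and 130.2 FPKM in treated wild type, and 35.0 and 50.1 FPKM in control. The 4 treated livers overlapped one another and lay clear of both controls. The level was 3.72-fold higher in treated wild type (1.90 ± 0.21 on the log2 scale, edgeR adjusted p = 0.00585) and 3.53-fold higher in treated Optn-/- (1.82 ± 0.20, edgeR adjusted p = 0.00449) than in control. Between the treated groups the log2 fold change was -0.08 ± 0.20 (edgeR adjusted p = 0.939). Within the sets, it was 2.16 in treated wild type (edgeR adjusted p = 0.016) and 1.60 in treated Optn-/- (edgeR adjusted p = 0.0227). Ctsl passed in both comparisons with control under each of the 14 alternatives run. The RefSeq start of the promoter window printed above lies 370 bases inside the gene model of the table.

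The other cathepsins did not share the size of this change. Ctsb, Ctsd and Ctsz, the other abundant members of the group, stood within a narrow range. Ctsb, a cysteine protease with peptidase activity at chain ends, had 97.8 and 91.3 FPKM in Optn-/- livers, 100.5 and 95.9 FPKM in treated wild type, and 87.2 and 94.4 FPKM in control. Its log2 fold change in treated wild type was 0.33 ± 0.13, which did not pass (unadjusted p = 0.0447, edgeR adjusted p = 0.145). The log2 fold changes of Ctsd and Ctsz in treated wild type were 0.17 and -0.01, and neither passed. Ctsa, the carboxypeptidase that protects neuraminidase and beta-galactosidase, Ctsh, an aminopeptidase, and Tpp1, a tripeptidyl peptidase, did not pass in any of the comparisons. In treated wild type Ctsl ranked 2 among the 8 cathepsin genes by FPKM, against 4 in control.

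Ctss and Ctsc, cathepsins known for high expression in immune cells, passed in treated Optn-/- livers against control and in no other comparison. Ctss (chromosome 3, 95526786 to 95556403, plus strand, GRCm38), which processes the invariant chain for antigen presentation, had 37.8 and 32.5 FPKM in Optn-/- livers, 26.1 and 23.7 FPKM in treated wild type, and 9.73 and 21.5 FPKM in control. Every treated liver was above both controls, but the controls differed from each other more than the mice of either treated group did. The log2 fold change was 1.36 ± 0.36 in treated Optn-/- (2.56-fold, edgeR adjusted p = 0.0465) and 0.89 ± 0.35 in treated wild type (edgeR adjusted p = 0.148) against control. Within the sets, it was 0.91 in treated Optn-/- (edgeR adjusted p = 0.0674) and 1.55 in treated wild type (edgeR adjusted p = 0.0265), so both calls changed with the control used.

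Ctsc (chromosome 7, 88278085 to 88310888, plus strand, GRCm38), the dipeptidyl peptidase that activates serine proteases of granulocytes, had 18.7 and 17.1 FPKM in Optn-/- livers, 13.2 and 14.3 FPKM in treated wild type, and 9.97 and 13.9 FPKM in control. Both Optn-/- livers were above the other 4, and the treated wild-type pair overlapped the controls. Its log2 fold change against control was 0.77 ± 0.18 in treated Optn-/- (1.70-fold, edgeR adjusted p = 0.0334) and 0.41 ± 0.18 in treated wild type (edgeR adjusted p = 0.174). Within the set of control replicate 6, the value in treated Optn-/- was 0.56 (edgeR adjusted p = 0.13). Between the treated groups the log2 fold changes were 0.35 ± 0.18 for Ctsc and 0.47 ± 0.35 for Ctss (edgeR adjusted p = 0.639 and 0.751), neither past the threshold.

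Monocyte and neutrophil marker sums were higher in every treated liver than in both controls, and the macrophage sum was not. The 10 markers of Kupffer cells and macrophages summed to 703 and 460 CPM in Optn-/- livers, 435 and 370.3 CPM in treated wild type, and 178 and 472 CPM in control replicates 3 and 6. Control replicate 3 was low for this sum as it was for Ctss, and control replicate 6 lay among the treated livers. The 8 monocyte markers summed to 342 and 273 CPM in Optn-/- livers, 192 and 119 CPM in treated wild type, and 27.9 and 60.5 CPM in control. Of the 6 monocyte markers tested, 6 rose in treated Optn-/- and 5 in treated wild type against control (edgeR). Of the 10 macrophage markers tested 1, Marco, rose in each (edgeR). Among all genes, 12.2% were higher in treated Optn-/- and 8.36% in treated wild type, so the macrophage count lies near the background. Neutrophil markers summed to 144 and 185 CPM in Optn-/- livers, 141 and 67.0 CPM in treated wild type, and 2.502 and 6.38 CPM in control. None of the markers on these lists was at 0 in all libraries. The part of these cells in the levels of Ctss and Ctsc was not tested, and in bulk liver more cells of a type and more RNA per cell cannot be told apart. Ctsl was also lower in control replicate 3 (35.0 FPKM) than in control replicate 6 (50.1 FPKM), and the part of these cells in its level was not tested.

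**Figure D3:**
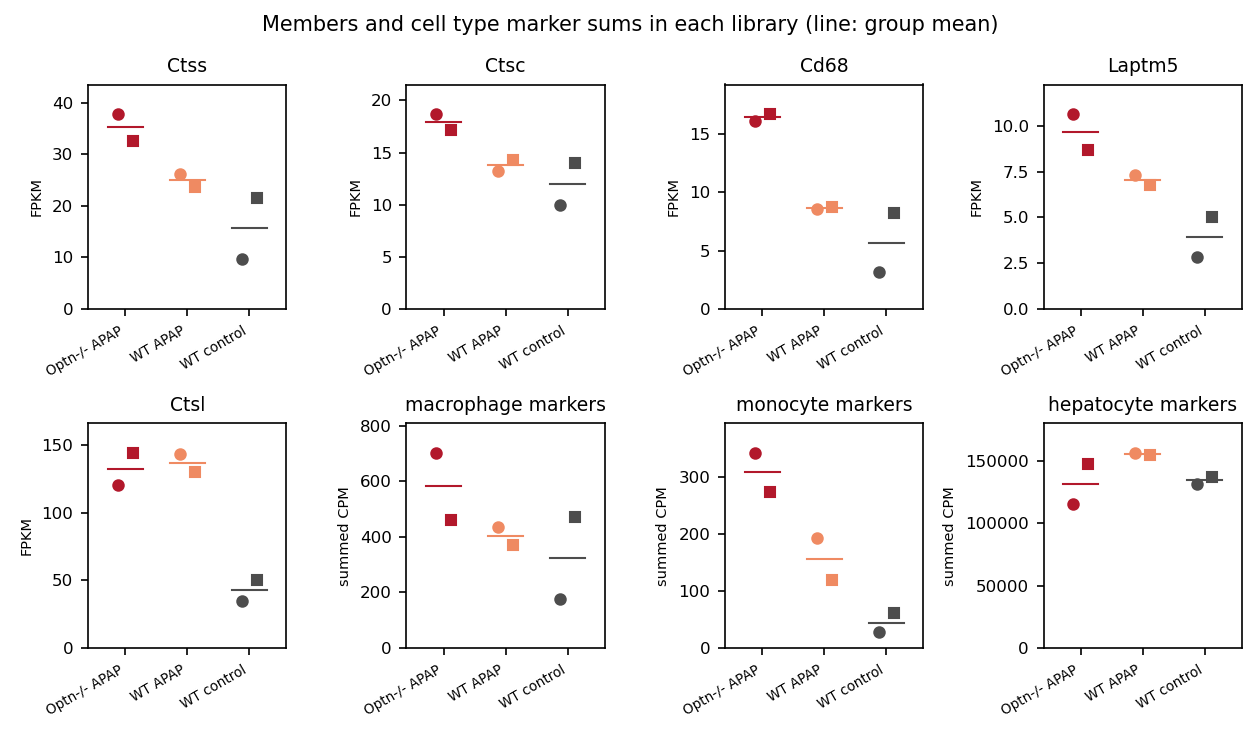
FPKM of Ctss, Ctsc, Cd68, Laptm5 and Ctsl and summed CPM of macrophage, monocyte and hepatocyte markers in each library, with circles and squares for the lower and higher replicate number and a line at each group mean. Control replicate 3 is the lowest point for all 5 genes and both immune sums. Both controls lie below all treated points for Ctss, Cd68, Laptm5, Ctsl and the monocyte sum, and not for Ctsc or the macrophage sum.

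Of the membrane proteins, Cd63 rose and the abundant structural ones did not pass. Cd63 (chromosome 10, 128900989 to 128912822, plus strand, GRCm38), a tetraspanin of late endosomes and lysosomes, had 1.99 and 2.99 FPKM in Optn-/- livers, 2.03 and 1.73 FPKM in treated wild type, and 0.504 and 0.974 FPKM in control. All treated livers stood above both controls at a low level overall. The log2 fold change was 1.92 ± 0.37 in treated Optn-/- (3.78-fold, edgeR adjusted p = 0.0194) and 1.55 ± 0.37 in treated wild type (2.93-fold, edgeR adjusted p = 0.0436) against control. Within the sets, it was 1.54 in treated Optn-/- (edgeR adjusted p = 0.0669) and 2.08 in treated wild type (edgeR adjusted p = 0.0438). The call in treated wild type held in 5 of 14 alternatives, the summed count described next among them, with an adjusted p of up to 0.142. In treated Optn-/- it held in 11 of 14.

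Cd63 has a pseudogene copy, Cd63-ps, whose reads could be split with it. Cd63-ps had 0.857 and 1.93 FPKM in Optn-/- livers, 1.30 and 1.002 FPKM in treated wild type, and 0.803 and 0.67 FPKM in control. With both counts summed, an alternative chosen after seeing the data, the log2 fold change was 1.79 in treated Optn-/- (edgeR adjusted p = 0.017) and 1.44 in treated wild type (edgeR adjusted p = 0.0383) against control. The summed counts gave the same direction and the same calls as Cd63 alone.

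Lamp1 and Lamp2, the heavily glycosylated proteins that line the lysosomal membrane, were level. Lamp1 had 237 and 222 FPKM in Optn-/- livers, 230.4 and 227 FPKM in treated wild type, and 241 and 255 FPKM in control. On deposited FPKM the treated livers lay below the controls, whereas the fitted log2 fold changes against control, 0.07 in treated Optn-/- and 0.09 in treated wild type, were slightly positive and did not pass. Deposited FPKM divide by the total count, and with total count scaling the median log2 fold change of all genes was -0.19 in both comparisons with control, against 0.03 in treated wild type and 0.00 in treated Optn-/- with trimmed-mean (TMM) scaling. Scarb2, the receptor that carries glucocerebrosidase to the lysosome, had log2 fold changes of 0.32 in treated Optn-/- and 0.14 in treated wild type and did not pass.

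The channel and proton pump genes held no called member. Mcoln1, a calcium channel of the lysosomal membrane that acts upstream of TFEB, had 2.63 and 2.68 FPKM in Optn-/- livers, 2.35 and 2.26 FPKM in treated wild type, and 3.07 and 3.51 FPKM in control. Both controls stood above all treated livers on this scale. The log2 fold change of Mcoln1 in treated wild type was -0.30 ± 0.13 (unadjusted p = 0.0654, edgeR adjusted p = 0.183), the smallest p of this group. The 3 proton pump members, Atp6v0d1 of the membrane sector and Atp6v1a and Atp6v1h of the catalytic sector, had log2 fold changes between -0.03 and 0.26 in treated wild type. All 15 other pump subunits tested also did not pass in any comparison. Of all genes, 14.3% passed in treated wild type and 20.3% in treated Optn-/- against control, and 0.103% between the treated groups. Beside these shares, 0 of 4 and 0 of 15 do not show that the pump genes were unchanged.

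No glycosidase passed by edgeR. Of all genes, 14.3% passed in treated wild type and 20.3% in treated Optn-/- against control, so 0 of 6 lies near the background. Gla (chromosome X, 134588149 to 134601125, minus strand, GRCm38), alpha-galactosidase A, came closest, with 1.39 and 1.89 FPKM in Optn-/- livers, 1.60 and 1.95 FPKM in treated wild type, and 1.19 and 1.09 FPKM in control. All treated livers lay above both controls. The log2 fold change was 0.70 ± 0.24 in treated Optn-/- (unadjusted p = 0.0283, edgeR adjusted p = 0.0963) and 0.84 ± 0.24 in treated wild type (unadjusted p = 0.0131, edgeR adjusted p = 0.0712) against control. DESeq2 called Gla higher in both, with an adjusted p of 0.0455 in treated Optn-/- and 0.0146 in treated wild type. Gaa, which breaks down glycogen, had 0.45 ± 0.18 in treated wild type (unadjusted p = 0.0487, edgeR adjusted p = 0.153), and its groups overlapped on FPKM. Glb1, Gusb, Hexa and Neu1, which release galactose, glucuronate, hexosamine and sialate residues, had log2 fold changes between 0.08 and 0.42 in treated wild type and did not pass.

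**Figure D4:**
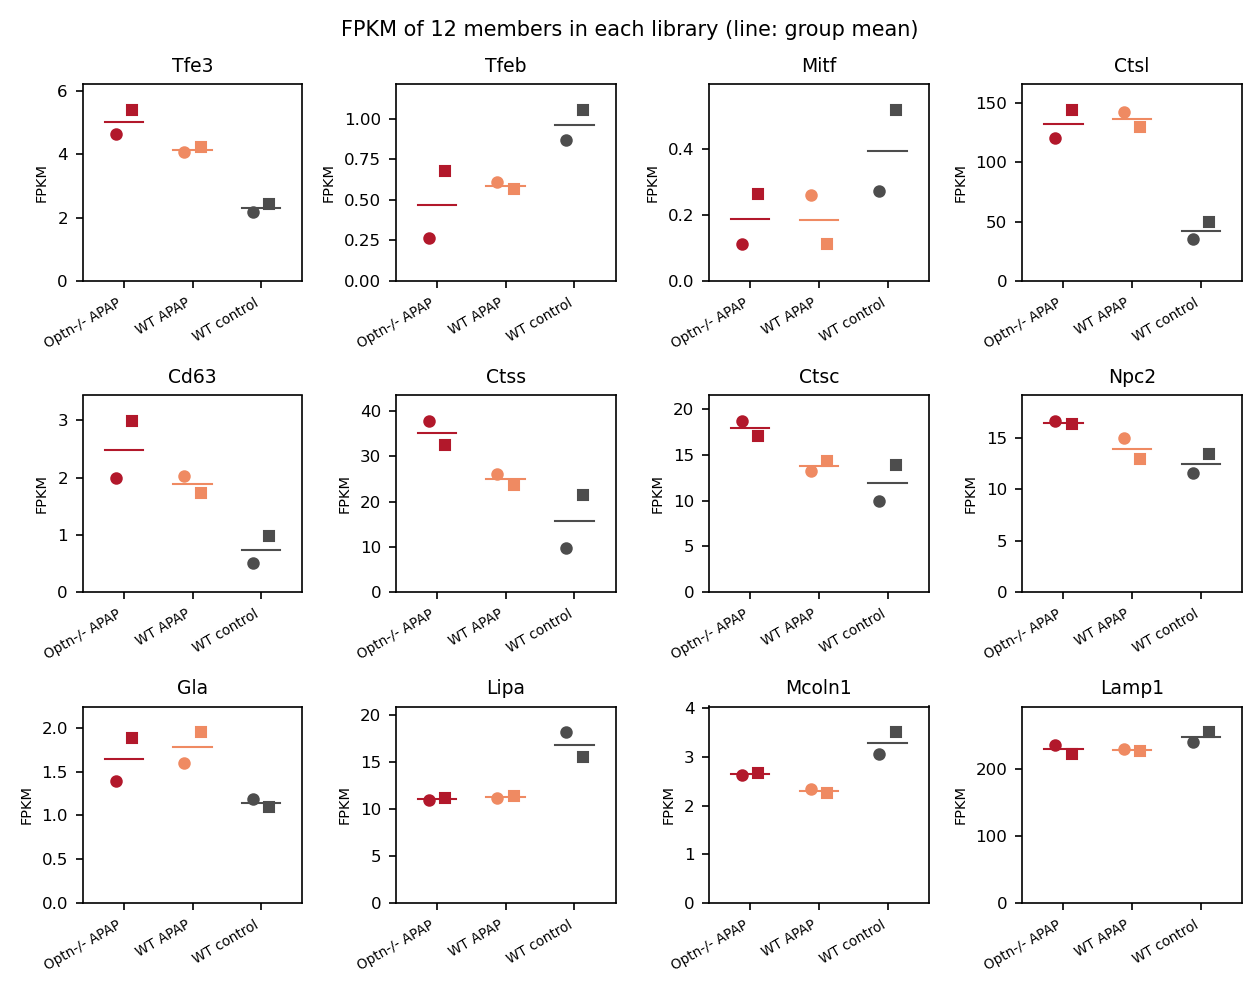
FPKM of 12 members in each library, with circles and squares for the lower and higher replicate number of a group and a line at each group mean. Ctsl, Tfe3, Cd63, Gla and Ctss have all treated points above both control points, and Lipa, Mcoln1, Tfeb, Mitf and Lamp1 have them below.

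The lipid handling genes went in both directions. Npc2 (chromosome 12, 84754562 to 84773152, minus strand, GRCm38), which carries cholesterol inside the lysosome, had 16.6 and 16.3 FPKM in Optn-/- livers, 14.9 and 12.9 FPKM in treated wild type, and 11.5 and 13.4 FPKM in control. Both Optn-/- livers stood above the other 4. The log2 fold change of Npc2 against control was 0.58 ± 0.15 in treated Optn-/- (edgeR adjusted p = 0.0403) and 0.38 ± 0.15 in treated wild type (edgeR adjusted p = 0.139). Within the set of control replicate 6, the value in treated Optn-/- was 0.49 (edgeR adjusted p = 0.195). The call was present in 5 of 14 alternatives.

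Npc1, the membrane partner that exports this cholesterol, pointed the other way. It had 5.44 and 5.38 FPKM in Optn-/- livers, 4.98 and 6.61 FPKM in treated wild type, and 7.38 and 9.17 FPKM in control. Both controls stood above all treated livers on FPKM. Its log2 fold change against control was -0.43 ± 0.17 in treated Optn-/- (unadjusted p = 0.0455, edgeR adjusted p = 0.131) and -0.31 ± 0.17 in treated wild type (edgeR adjusted p = 0.276).

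Lipa (chromosome 19, 34492318 to 34527474, minus strand, GRCm38), the acid lipase that splits cholesteryl esters and triglycerides, had 10.99 and 11.17 FPKM in Optn-/- livers, 11.19 and 11.38 FPKM in treated wild type, and 18.2 and 15.6 FPKM in control. The 4 treated livers lay close together and below both controls. The log2 fold change was -0.43 ± 0.13 in treated Optn-/- (edgeR adjusted p = 0.0724) and -0.37 ± 0.13 in treated wild type (edgeR adjusted p = 0.117), past the threshold in neither. Lipa passed as lower in both comparisons under 4 of 14 alternatives, DESeq2, limma with either pseudocount and total count scaling.

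Psap and Asah1, the saposin precursor and acid ceramidase, were each higher in treated Optn-/- than in control at an unadjusted p under 0.05 without passing adjustment. Psap had 195 and 165 FPKM in Optn-/- livers, 145.1 and 148 FPKM in treated wild type, and 145.1 and 161 FPKM in control. Its log2 fold change in treated Optn-/- was 0.42 ± 0.14 against control (edgeR adjusted p = 0.0952). Asah1 had 7.42 and 7.46 FPKM in Optn-/- livers, 6.66 and 6.94 FPKM in treated wild type, and 6.57 and 6.45 FPKM in control, with a log2 fold change of 0.37 ± 0.12 in treated Optn-/- against control (edgeR adjusted p = 0.0765). For both genes the Optn-/- pair lay above the other 4 livers. DESeq2 called both higher in treated Optn-/- (adjusted p = 0.0315 for Psap and 0.0184 for Asah1), and edgeR with a filter of 5 FPKM called Asah1 (adjusted p = 0.0395).

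Members were also counted by their promoter motif. Of the 6 with TCACGTGA, 0 passed in any of the 3 comparisons, and their median log2 fold change was 0.22 in treated wild type and 0.15 in treated Optn-/- against control. Of the 19 tested members with a window but without this motif, 3 passed in treated wild type and 6 in treated Optn-/-, all higher, with medians of 0.14 and 0.32. Of the 10 with the core CACGTG, 1, Ctsl, passed in each of these comparisons. Beside 14.3% of all genes called in treated wild type and 20.3% in treated Optn-/-, counts of 0 of 6 and 1 of 10 lie near the background and show nothing about the motif.

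A wider list of 115 other lysosome pathway genes in the table, of which 101 were tested, was measured beside the members. Of the 101, 5 were higher and 3 lower in treated wild type than in control (7.92%, against 14.3% of all genes), and 11 were higher and 3 lower in treated Optn-/- (13.9%, against 20.3%). Between the treated groups 0 passed (edgeR), against 0.103% of all genes. At an unadjusted p under 0.05 there were 4 of the 101 (3.96%, against 8.77% of all genes). The list was written from general knowledge with earlier results of these data known.

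Among other genes reported as TFEB or TFE3 targets, Sqstm1 and Hif1a rose in both treated groups against control. Map1lc3b passed in treated Optn-/- only. Sqstm1, the autophagy receptor p62, had 339 and 357 FPKM in Optn-/- livers, 273 and 361 FPKM in treated wild type, and 103 and 104 FPKM in control. All treated livers lay far above both controls, with a log2 fold change of 1.93 ± 0.16 in treated Optn-/- (edgeR adjusted p = 0.00195) and 1.82 ± 0.16 in treated wild type (edgeR adjusted p = 0.00331). Hif1a, a transcription factor of the hypoxia response, was higher by 1.67 ± 0.24 on the log2 scale in treated Optn-/- (edgeR adjusted p = 0.00824) and by 1.34 ± 0.24 in treated wild type (edgeR adjusted p = 0.02). Map1lc3b, which encodes the autophagosome protein LC3B, had 24.8 and 24.0 FPKM in Optn-/- livers, 14.0 and 15.0 FPKM in treated wild type, and 15.0 and 8.90 FPKM in control, and passed in treated Optn-/- (1.20 ± 0.26, edgeR adjusted p = 0.0258). Of the 8 such genes tested, 3 were higher in treated Optn-/- and 2 in treated wild type, and 0 were lower. Among all genes, 12.2% were higher and 8.05% lower in treated Optn-/-, and 8.36% and 5.92% in treated wild type. With 8 genes tested, these counts do not show a response of such targets as a group. Sqstm1 is also a known target of NRF2, a stress factor that answers oxidants, and the part of each factor was not tested.

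Membrane and lumenal proteins outside the list included 2 that are markers of phagocytes. Cd68, a macrophage protein of late endosomes, had 16.1 and 16.7 FPKM in Optn-/- livers, 8.54 and 8.73 FPKM in treated wild type, and 3.13 and 8.18 FPKM in control (log2 fold change 1.72 ± 0.42 in treated Optn-/- against control, edgeR adjusted p = 0.0374). Laptm5, a lysosomal protein of blood cells, had 10.7 and 8.69 FPKM in Optn-/- livers, 7.30 and 6.78 FPKM in treated wild type, and 2.84 and 5.03 FPKM in control (1.48 ± 0.28, edgeR adjusted p = 0.0188). As with Ctss, control replicate 3 was the lowest library for both. Grn, progranulin, rose in both treated groups against control, by 0.96 ± 0.15 on the log2 scale in treated Optn-/- and 0.81 ± 0.15 in treated wild type (edgeR adjusted p = 0.0098 and 0.0209). The cation channel Tpcn1 had 4.33 and 2.64 FPKM in Optn-/- livers, 3.74 and 3.50 FPKM in treated wild type, and 8.46 and 7.63 FPKM in control. All treated livers lay below both controls. Tpcn1 fell by 1.02 on the log2 scale in treated Optn-/- against control (edgeR adjusted p = 0.0418) and did not pass in treated wild type. These account for all called genes among the 17 tested.

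Acid hydrolases and sorting genes outside the list were measured as well. In each comparison with control 6.9% of the hydrolases and 10% of the sorting genes passed (edgeR). Of all genes, 14.3% passed in treated wild type and 20.3% in treated Optn-/-. Lists this short do not show a difference from that background. Of 29 hydrolases tested, Pla2g15, a lysosomal phospholipase, fell in both treated groups against control, with 1.90 and 1.94 FPKM in Optn-/- livers, 2.01 and 2.37 FPKM in treated wild type, and 4.75 and 4.95 FPKM in control (log2 fold change -1.16 ± 0.17 and -0.94 ± 0.17, edgeR adjusted p = 0.00847 and 0.02). Manba, beta-mannosidase, fell in treated wild type (-0.76 ± 0.17, edgeR adjusted p = 0.0373), and Plbd2, a phospholipase B-like protein, rose in treated Optn-/- (0.62 ± 0.16, edgeR adjusted p = 0.0437) against control. Of the 10 sorting genes, Gga2, an adaptor that sorts hydrolase receptors at the Golgi, fell in treated Optn-/- and in treated wild type (-0.87 ± 0.21 and -0.98 ± 0.21, edgeR adjusted p = 0.0369 and 0.0339). The mannose phosphate receptors Igf2r and M6pr did not pass.

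Upstream of TFEB, 19 genes of nutrient sensing were tested. In treated wild type against control 1 was higher and 0 lower, against 8.36% and 5.92% of all genes. In treated Optn-/- against control 3 were higher and 0 lower, against 12.2% and 8.05% of all genes. These counts lie near the background. Ywhaz, a 14-3-3 protein of the class that holds phosphorylated TFEB in the cytosol, rose in both treated groups (by 0.63 ± 0.12 on the log2 scale in treated Optn-/- and 0.59 ± 0.12 in treated wild type, edgeR adjusted p = 0.0186 and 0.0281). Flcn, folliculin, and Rraga, a GTPase that docks mTORC1, passed in treated Optn-/- against control (0.81 ± 0.21 and 0.48 ± 0.13, edgeR adjusted p = 0.0428 and 0.0462). Mtor and Rptor did not pass in any comparison. Of the cathepsin inhibitors, the cystatins Cst3 and Cstb did not pass. Stfa2l1, a stefin of myeloid cells with near-identical copies in the genome, had counts of 72 and 73 in Optn-/- livers, 29 and 41 in treated wild type, and 0 in both controls, and passed in both comparisons with control (edgeR adjusted p = 0.00453 in treated Optn-/- and 0.00883 in treated wild type).

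**Figure D5:**
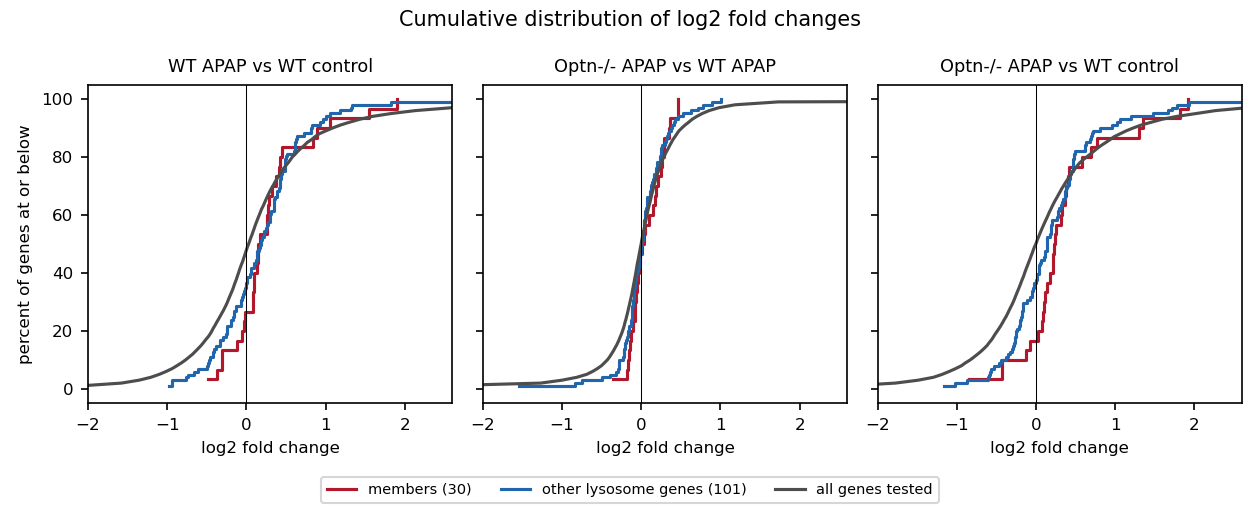
Percent of genes at or below each log2 fold change in the 3 comparisons, for the 30 members tested (red), the 101 other lysosome genes tested (blue) and all 11677 genes tested (grey). In both comparisons with control the members' curve lies to the right of all genes around 0, with medians of 0.16 and 0.24 against 0.03 and 0.00, and in Optn-/- APAP against WT APAP the curves cross 0 together.

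Summed over the 31 members, the libraries held 5277 and 5227 CPM in Optn-/- livers, 5047 and 4949 CPM in treated wild type, and 4341 and 4774 CPM in control. Most of this spread lay in the 9 peptidases, which summed to 2747 and 2761 CPM in Optn-/- livers, 2714 and 2603 CPM in treated wild type, and 1893 and 2168 CPM in control. Ctsl is 1 of these, with counts of 65777 and 63557 in Optn-/- livers, 66267 and 65122 in treated wild type, and 14719 and 26896 in control. The sum without Ctsl was not taken, so a rise of the peptidases as a class is not shown. The membrane proteins summed to 1235 and 1260.1 CPM in Optn-/- livers, 1232 and 1179 CPM in treated wild type, and 1282 and 1335 CPM in control. The members' median was positive with TMM scaling and, in treated wild type, was -0.06 with total count scaling, where all genes had -0.19. In treated Optn-/- it was 0.05 with that scaling. Of all genes called in treated wild type, 58.5% were higher with TMM scaling and 32.6% with total count scaling, and in treated Optn-/- 60.3% and 39.1%. Relative to the median of all genes, the members lay higher with either scaling.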

How the data were processed

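Poly(A) RNA from 6 livers was sequenced as paired ends, per the labels' protocols, which speak of an adipose type although each sample is labelled liver. The authors deposited 1 table of raw counts, whole numbers for each gene in each library, per the file headers. The same table holds the authors' deposited FPKM, where every count of 0 is listed at 0.0001. Per the submitters' processing notes, Bowtie 0.12.2 and the build mm8 were used, while coordinates in the table equal those of GENCODE M21 (GRCm38) for 94.2% of shared genes and 29 of the 31 members, so they are given as GRCm38. Neither the counter nor its use of strand is stated in the labels or headers. Reads cannot be told apart where Lamp1, Ctsa, Ctsb, Ctsz and Npc1 overlap an expressed gene on the opposite strand and where Ctss overlaps one on the same strand. Total counts were 77292216 and 62531484 in Optn-/- libraries, 65959766 and 71060715 in treated wild type, and 59143418 and 75856408 in control. The limit behind a zero is 3 counts, 0.0388 to 0.0507 CPM, for counting error only. No pair of replicates lay within sampling noise of each other (mean chi-square per gene 204.2, 107.2 and 85.2 in Optn-/-, treated wild type and control). The design text says that replicates are individual animals.

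Counts were tested with edgeR 4.0.16 in R 4.3.3 (quasi-likelihood test, TMM scaling, all 6 libraries in 1 model of 3 group means, 3 residual degrees of freedom, common biological coefficient of variation 0.277). The 11677 genes averaging 0.5 FPKM or more entered, and a Benjamini-Hochberg adjusted p under 0.05 over all of them was the threshold. SE is the absolute log2 fold change over the square root of F. The scripts were tested on simulated data. Alternatives were DESeq2 1.42.0, limma 3.58.1 on log2(FPKM + 0.5) and log2(FPKM + 0.1), total count scaling, no filter, a filter of 5 FPKM, only the 2 groups compared, the library set as a term, and leaving out each library. A summed Cd63 count was added after seeing the data. The members and lists were chosen with earlier results of these data known. Of 116 other pathway genes listed, 115 were in the table. Every member could be named. Values per library were given for the transcription factors, members past the threshold, members with an unadjusted p under 0.05 whose groups do not overlap, and the smallest p of each role. In the other lists, called genes were named. Promoter sequences are from RefSeq (GRCm38.p6).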

Additional observations from a re-analysis of the deposited data

How the results depend on the processing

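Each member's log2 fold change was refitted under 14 alternatives per comparison, where its filter kept it. Ctsl kept its call in both comparisons with control in all of them, with an edgeR, DESeq2 or limma adjusted p of up to 0.0329 in treated Optn-/- and 0.0284 in treated wild type. Tfe3 kept it in 13 of 13 in treated Optn-/- and in 12 of 13 in treated wild type. Cd63, with the summed count among its alternatives, kept it in 11 of 14 in treated Optn-/- and 5 of 14 in treated wild type, and Ctsc, Ctss and Npc2 in treated Optn-/- in 4, 4 and 5 of 14. No called value changed sign.

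In treated wild type against control, the count of 3 members higher became 1 with a filter of 5 FPKM, which leaves out Tfe3 and Cd63, and ran from 1 to 4 when a library was left out, with 1 (Ctsl) without control replicate 3 and 4 (with Ctss added) without control replicate 6. DESeq2 called 4 higher, with Gla added. The count of 0 lower became 1 with DESeq2, 1 with limma at either pseudocount (Lipa each) and 2 with total count scaling (Lipa and Mcoln1). In treated Optn-/- against control, the count of 6 higher became 3 with limma at either pseudocount, 3 with total count scaling and 2 with a term for the library set. With DESeq2 it became 9, with Asah1, Gla and Psap added, and with a filter of 5 FPKM it was 5, with Asah1 added. It ran from 2 to 5 when a library was left out, with 3 without Optn-/- replicate 4, 2 (Ctsl and Tfe3) without Optn-/- replicate 5 and 2 without control replicate 3. The count of 0 lower became 1 (Lipa) with DESeq2, limma at either pseudocount and total count scaling. The cause of these changes was not tested, apart from the filter and the fewer samples. Between the treated groups 0 members passed under all 14 alternatives. Over all genes, DESeq2 called 1684 higher and 1423 lower in treated wild type against control, beside 976 and 691 by edgeR. In treated Optn-/- against control it called 1987 higher and 1633 lower, beside 1426 and 940. Between the treated groups it called 167 and 120, beside 6 and 6. The members that DESeq2 added against control thus came with more calls among all genes.

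No paired analysis was possible because the groups share at most 1 replicate number, and the controls share none with the treated groups. Where a left-out library leaves a group with 1 liver, that liver is assumed to vary like the other groups. The low level of Tfeb, Mitf and Cd63 limits what their values can show.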
